A study of Mus musculus with 8 samples.

Results

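Complement C3 and 5 genes that mark myeloid cells (CCR2, CD11b, CD11C, Cd86 and MMP9) were followed in the colon of mice on a high salt diet and of mice on a control diet. The 6 genes were taken by name from a custom NanoString nCounter panel of 68 target genes, as its probes for complement and for monocytes, macrophages, dendritic cells and granulocytes. The nCounter counts fluorescent barcodes bound to each RNA, without amplification. High salt mice ate for 1 week a feed that was otherwise the control feed with 4% sodium chloride added, and control mice ate the feed without it. All were specific pathogen-free C57BL/6 mice, 7 to 10 weeks old. RNA of the whole colon of 20 mice, 10 per diet, was combined into 8 pools. On each diet the pools held male mice 1, 2 and 3 (male 1-3), male mice 4 and 5 (male 4-5), female mice 1, 2 and 3 (female 1-3) and female mice 4 and 5 (female 4-5). A pool averages its 3 or 2 mice, so every p-value below has pools, not mice, as its units. The comparison bears on whether added salt was accompanied by immune cell recruitment or activation in the colon.

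Myeloid cells are the innate white cells that descend from the bone marrow myeloid line. In the healthy colon most macrophages are replaced over time by blood monocytes, which enter the tissue with the help of CCR2, the receptor for the chemokine CCL2. CD11b and CD11C are integrin alpha chains that pair with the same beta chain, CD11b on monocytes, macrophages and granulocytes and CD11C on dendritic cells and many intestinal macrophages. Cd86 is the ligand on antigen presenting cells that gives T cells a second signal through CD28. MMP9 is gelatinase B, a protease of the extracellular matrix stored in neutrophil granules and also made by macrophages. C3 is the component on which the pathways of complement activation converge, and it is made by the liver and by epithelial and stromal cells as well as by myeloid cells.

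All 6 names matched a mouse gene in the RefSeq table, 4 by symbol, and CD11b and CD11C as synonyms of Itgam and Itgax. The genes lie on chromosomes 17 (C3), 9 (CCR2), 7 (CD11b and CD11C), 16 (Cd86) and 2 (MMP9) of GRCm38.p6. The probe sequences were not used here. The RefSeq promoter table held 4 of the 6 genes, and the 120 bases before their annotated starts are shown because they set the 2 integrin chains beside the chemokine receptor and C3. Each is written 5′ to 3′ on the gene's strand, with matches to 3 motifs in capitals. The motifs were GAGGAA (the core bound by PU.1, the factor of the myeloid line) and TTGCNNAA (bound by C/EBP factors), each searched on both strands, and TATAAA (the TATA box), searched on the gene's strand only.
C3, chr17:57228137-57228256, minus strand: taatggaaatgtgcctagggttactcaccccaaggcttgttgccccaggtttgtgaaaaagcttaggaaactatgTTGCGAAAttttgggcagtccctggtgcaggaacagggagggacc
CCR2, chr9:124102063-124102182, plus strand: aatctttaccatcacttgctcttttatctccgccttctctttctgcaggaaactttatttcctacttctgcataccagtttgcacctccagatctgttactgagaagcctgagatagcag
CD11b, chr7:128062520-128062639, plus strand: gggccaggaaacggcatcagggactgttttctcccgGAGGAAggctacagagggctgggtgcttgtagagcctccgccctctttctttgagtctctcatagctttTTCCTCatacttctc
CD11C, chr7:128129430-128129549, plus strand: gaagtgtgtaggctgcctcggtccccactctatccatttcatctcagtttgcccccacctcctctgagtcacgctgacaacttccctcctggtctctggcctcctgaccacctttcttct

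The CD11b window held GAGGAA at positions -84 to -79 before the start and its reverse complement TTCCTC at -15 to -10. The C3 window held TTGCGAAA at -45 to -38. None of the 3 motifs was present in the CCR2 or CD11C window. Among 32851 promoter windows of the same length, 11.6% held GAGGAA on either strand, 4.15% held TTGCNNAA and 4.19% held TATAAA. These matches describe letters only.

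The deposited values are normalized counts. The geometric mean of the reference genes Gapdh, Gusb and Pgk1 lay between 772.894 and 772.912 in all 8 pools, and values too low to keep had been replaced by a floor. It equalled the geometric mean of a pool's 6 negative controls and was 1.59 to 6.51 in high salt pools and 1.59 to 3.66 in control pools. Every value above the floor was a whole multiple of a fixed step in its pool, so the barcode counts behind it could be recovered. Recovered totals were 26893 to 169300 counts in high salt pools and 13574 to 74270 in control pools. On both diets the female 1-3 pool had the lowest total. A single count was worth 3.10 in that pool on high salt and 3.85 on control, against 0.409 to 1.44 in the other pools. The 5 epithelial markers Cdh1, Muc2, Tff3, Cldn2 and I-FABP were above the floor in all pools, and their summed value was 43869 to 71796 on high salt (median 59019) and 28165 to 88101 on control (median 30193). Muc2 alone ran from 3373 to 62763, and the markers did not move together. By limma, log2 differences (high salt minus control) were 1.73 for Muc2 and 2.04 for I-FABP. For Cdh1, Tff3 and Cldn2 they were -0.06, -0.17 and -0.97. The adjusted p was 0.514 or more for each. The part of these markers in the results below was not tested.

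C3 was by far the most abundant of the 6, and Cd86 and CD11C were the least. The median over the 8 pools was 329.1 for C3, 38.6 for CCR2, 15.5 for CD11b, 11.4 for MMP9, 9.15 for Cd86 and 7.19 for CD11C. By median they ranked 13, 32, 42, 47, 51 and 53 among the 68 target genes. C3 was above each of the others in 8 of 8 pools, and CCR2 was above the 4 remaining genes in 8 of 8. The next neighbours in the order were not separated. CD11b exceeded MMP9 in 5 of 8 pools, MMP9 exceeded Cd86 in 7, and Cd86 exceeded CD11C in 4. CD11b was above CD11C in all 8 pools, though by 4 counts against 3 in the control female 1-3 pool, where the highest negative control also had 4. Each gene has a single probe, so these are barcode levels that depend on the probe as well as on the transcript.

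The recovered counts set how firmly each gene could be read. C3 rested on 135 to 802 counts and CCR2 on 26 to 59, and both exceeded the pool's highest negative control in 8 of 8 pools. CD11b rested on 4 to 31 counts and passed that control in 4 of 4 high salt and 2 of 4 control pools. MMP9 rested on 6 to 21 counts and passed it in 3 of 4 high salt pools and 1 of 4 control pools. CD11C had 22, 19 and 8 counts in 3 high salt pools, all above the highest negative control, and 3 to 5 counts in control pools, none of them above it. Cd86 passed it in 2 of 4 high salt pools and in 0 of 4 control pools. In all, 31 of the 48 values lay above the highest negative control of their pool, and 2 of the 48 were at the floor. These were CD11C in the high salt female 1-3 pool, where the floor covers a count of up to 1, and Cd86 in the high salt male 1-3 pool, where it covers up to 15. CD11C and Cd86, the dendritic cell markers, were thus close to background. In normalized units the highest negative control was 6.21 to 9.18 in high salt pools and 7.29 to 15.4 in control pools. In the female 1-3 pools CD11b therefore passed at 15.5 on high salt and did not pass at 15.4 on control. The share of the 68 genes that passed was not counted, so these counts are not read as diet differences.

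**Figure D1:**
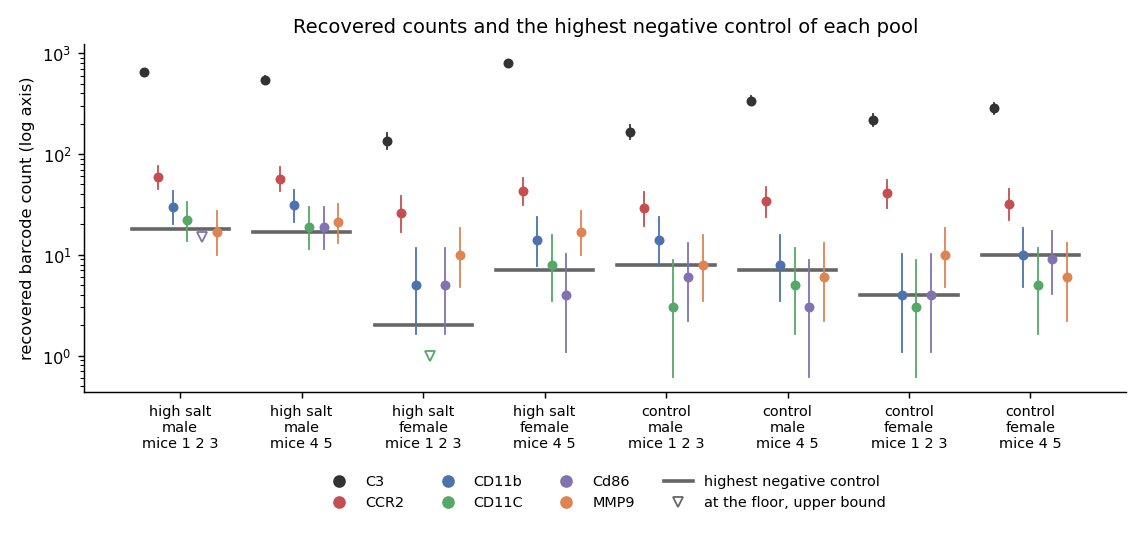
Recovered barcode counts of the 6 genes (log axis, bars are exact 95% Poisson intervals that cover counting error only) in the 4 high salt and 4 control pools, with the highest of the 6 negative controls of each pool as a grey line. C3 and CCR2 lie above the line in all 8 pools, whereas CD11C and Cd86 do not pass it in any control pool.

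For none of the 6 genes was the difference between the diets larger than the spread of the pools. In limma on log2 of the value plus 1, with Benjamini-Hochberg adjustment over the 68 target genes, 0 of 6 passed an adjusted p of 0.05, as did 0 of all 68 (0%). At an unadjusted p under 0.05 there were 0 of 6, against 4.41% of the 68. For no member were the 4 high salt pools separate from the 4 control pools, against 1.47% of the 68 genes. The methods' unpaired test also called 0 genes. So did the voom fit on recovered counts, which covered the 47 genes never at the floor and left out CD11C and Cd86. The log2 difference, high salt minus control, was above 0 for 5 of the 6 genes, against 64.7% of the 68, with a median of 0.086 for the 6 and 0.18 for all 68. The median of the 6 was -0.013 without the control male 1-3 pool, 0.32 without the control female 1-3 pool and 0.38 without both female 1-3 pools. In bulk tissue, fewer cells of a type and less RNA per cell cannot be told apart.

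C3 had values of 266.5, 292.8, 418.9 and 931.7 in the high salt pools (male 1-3, male 4-5, female 1-3, female 4-5), against 238.7, 353.3, 836.4 and 304.9 in the control pools in the same order. Each diet had a single high pool, of females in both cases, but female 4-5 on high salt and female 1-3 on control. The means were 477.5 ± 310 on high salt and 433.3 ± 273 on control (SD, n = 4 pools each), a log2 difference of 0.13 ± 0.51 (SE, adjusted p = 0.942; exact permutation p = 0.743). The 95% interval ran from -1.01 to 1.26, so that changes from 0.495-fold to 2.40-fold lie within it. Without the high salt female 4-5 pool the difference was -0.26.

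CCR2 had values of 24.2, 30.8, 80.7 and 49.95 on high salt, against 41.7, 35.4, 158.0 and 34.4 on control, in the same order of pools. The female 1-3 pool was the highest on each diet, and the groups overlapped. CCR2 averaged 46.4 ± 25.3 on high salt and 67.4 ± 60.5 on control, a log2 difference of -0.35 ± 0.56 (adjusted p = 0.912; exact permutation p = 0.629; 95% interval -1.60 to 0.90). The sign turned without the control female 1-3 pool, where the difference was 0.17.

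CD11b, the integrin chain shared by monocytes, macrophages and granulocytes, was the steadiest of the 6 on high salt, with values of 12.3, 16.7, 15.5 and 16.3. The value of 15.5 rests on 5 counts, with a 95% Poisson interval of 5.04 to 36.2 in normalized units. That is wider than the spread of the 4 values, so the steadiness is not read as a trait of CD11b. The control pools had 20.1, 8.34, 15.4 and 10.7 and spanned the whole high salt range. The means were 15.2 ± 2.01 on high salt and 13.7 ± 5.22 on control, a log2 difference of 0.21 ± 0.35 (adjusted p = 0.912; exact permutation p = 0.514; 95% interval -0.56 to 0.97). It was the member whose difference kept its sign without each pool in turn, at 0.012 to 0.40.

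MMP9 had values of 6.96, 11.3, 31.0 and 19.8 on high salt, against 11.5, 6.25, 38.5 and 6.44 on control. As for CCR2, the female 1-3 pool was the highest on both diets. MMP9 averaged 17.3 ± 10.6 on high salt and 15.7 ± 15.4 on control, a log2 difference of 0.32 ± 0.62 (adjusted p = 0.912; exact permutation p = 0.714; 95% interval -1.04 to 1.69). Without the control female 1-3 pool the difference was 0.87, and without the high salt pool of the same label it was -0.011.

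The dendritic cell markers CD11C and Cd86 had no control value above the highest negative control. CD11C had values of 9.01, 10.3, 1.59 (the floor) and 9.29 on high salt, against 4.31, 5.21, 11.6 and 5.37 on control. Of the high salt pools 3 were above 3 of the control pools, and the female 1-3 pools ran the opposite way, lowest on high salt and highest on control. The log2 difference was 0.05 ± 0.52 (adjusted p = 0.942; exact permutation p = 1; 95% interval -1.11 to 1.199), and it was 0.55 without the high salt pool at the floor, 0.58 with negative controls subtracted and 0.82 without both female 1-3 pools. Cd86 had values of 6.51 (the floor), 10.3, 15.5 and 4.65 on high salt, against 8.63, 3.13, 15.4 and 9.66 on control. The groups covered nearly the same range, with a log2 difference of 0.05 ± 0.49 (adjusted p = 0.942; exact permutation p = 0.914; 95% interval -1.05 to 1.14).

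**Figure D2:**
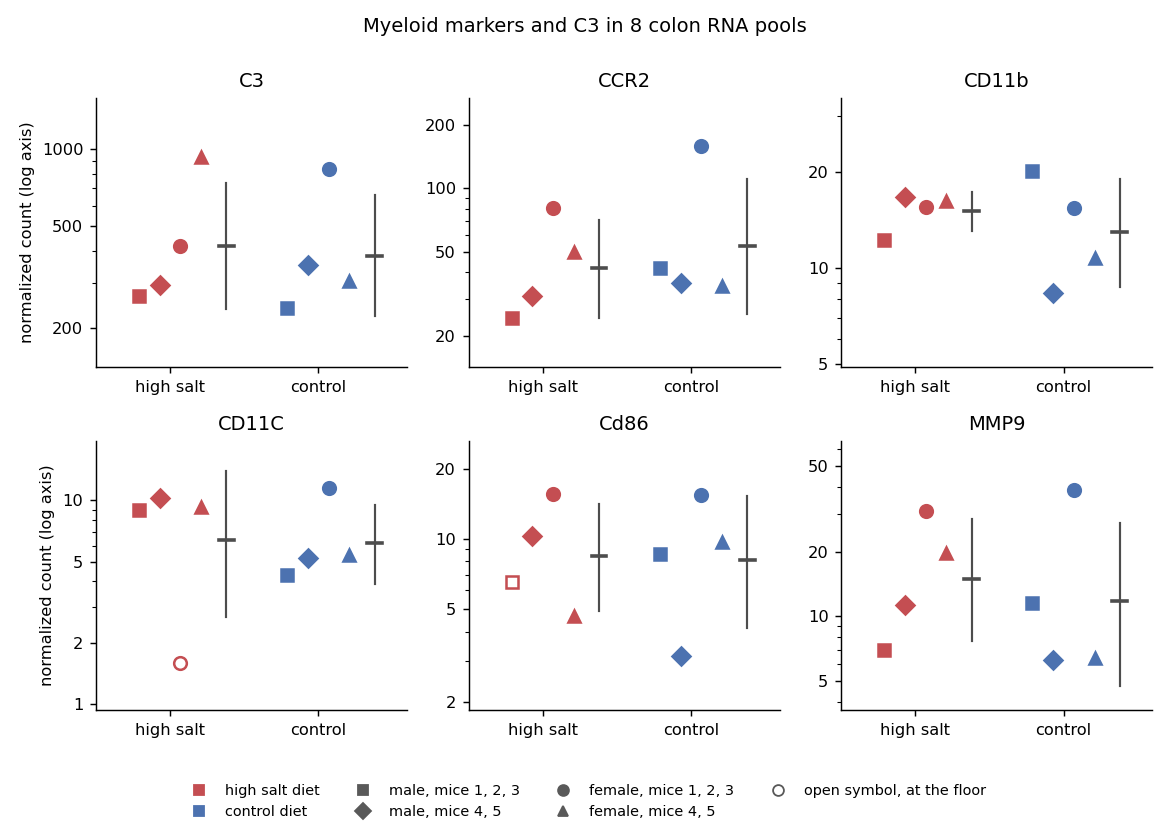
Normalized counts (log axis) of the 6 genes in the high salt and control pools, with symbols for sex and mouse numbers, open symbols for values at the floor, and a grey bar for the mean and SD of log2 of the value plus 1 in each diet. The diets overlap for every gene, and the female 1-3 pool is the highest for CCR2 and MMP9 on both diets.

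The other innate genes of the panel gave the same count of calls. Of 10 genes of innate sensing and signalling (Tlr2, Tlr4, Nod2 and Myd88 among them), 0 passed. Differences were above 0 in 9 of the 10, against 64.7% of the 68. The median was 0.23, against 0.18 for all 68. Tlr2, a receptor of bacterial lipoproteins, had 101 to 267 on high salt (median 228) and 32.3 to 262 on control (median 57.7). Its log2 difference was 1.396 ± 0.61 (adjusted p = 0.628). Without the control male 1-3 pool it passed, at 2.005 (adjusted p = 0.0238), as 1 of 5 of the 68 genes that did so there. Tlr4, the endotoxin receptor, differed by 0.27 ± 0.30, and its adaptor Myd88 by 0.17 ± 0.33 (adjusted p = 0.912 for both). Nod2, a sensor of bacterial cell wall, differed by 0.43 ± 0.44 (adjusted p = 0.912). Of 3 genes listed as granulocyte and macrophage products, 0 passed. Lyz1, a lysozyme here also listed as a marker of Paneth cells, differed by 0.03. Cnlp, the cathelicidin, differed by 0.24, and NOS, here also listed as a marker of enteric neurons, by 0.29. With Lyz1 and NOS on other lists too, these values do not speak for granulocytes and macrophages alone. Of 5 other leukocyte receptors (CCR6, CXCR3, Cxcr4, Gpr44 and Il23r), 0 passed, and 4 differences were below 0, with a median of -0.18.

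C3, CCR2 and MMP9 had lower means in male than in female pools, by log2 differences of about 1 that did not pass the adjusted threshold. With diet as a covariate, 0 of 6 passed an adjusted p of 0.05, as did 0 of 68 (0%), and C3 was the 1 of 6 with an unadjusted p under 0.05, against 13.2% of the 68. Levels were lower in males for 5 of the 6, against 63.2% of the 68, and no member had separate groups, against 10.3%. C3 averaged 287.8 ± 48.9 in male pools and 623.0 ± 307 in female pools, a log2 difference, male minus female, of -0.98 ± 0.41 (adjusted p = 0.298; exact permutation p = 0.0571; 95% interval -1.93 to -0.026). The male pools of C3 lay between 238.7 and 353.3, and only the control female 4-5 pool, at 304.9, fell among them. Markers of enteric nerves and glia also had lower median summed levels in male pools. The summed level of 4 neuron markers (PGP9.5, CHAT, VIP and NOS) was 285 to 446 in male and 618 to 710 in female pools, and that of 3 glia markers (GFAP, SOX10 and S100BETA) was 39.7 to 83.4 in male and 46.2 to 180 in female pools. Of these 7 genes, 6 had lower means in males and none passed, with SOX10 at -1.68 ± 0.40 (adjusted p = 0.101). PGP9.5, higher in males by 1.24, was above the floor in 4 of 8 pools. The 5 epithelial markers went the other way, with a median summed level of 57833 in male and 42376 in female pools. Of these 5, 1 had a lower mean in males. How often summed levels separate by sex over the panel was not computed. The part of all these markers in the differences of C3, CCR2 and MMP9 was not tested.

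CCR2 averaged 33.02 ± 7.41 in male and 80.8 ± 54.99 in female pools, a log2 difference of -1.06 ± 0.47 (adjusted p = 0.298; exact permutation p = 0.0857). MMP9 averaged 9.01 ± 2.80 in male and 23.9 ± 14.0 in female pools, a log2 difference of -1.11 ± 0.53 (adjusted p = 0.298; exact permutation p = 0.114). Both values shrank without the female 1-3 pools, the least deeply counted of their diets. Without these 2 pools they were -0.35 for CCR2 and -0.36 for MMP9, and that of C3 was -0.90. Without the control female 4-5 pool instead, CCR2 at -1.52 and MMP9 at -1.65 passed the threshold (adjusted p = 0.0322 each), among 7 of the 68 genes. Cd86 differed by -0.57 ± 0.47 (adjusted p = 0.523), and by -0.027 without both female 1-3 pools. CD11b differed by -0.06 ± 0.33 (adjusted p = 0.976) and CD11C by 0.20 ± 0.54 (adjusted p = 0.877).

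**Figure D3:**
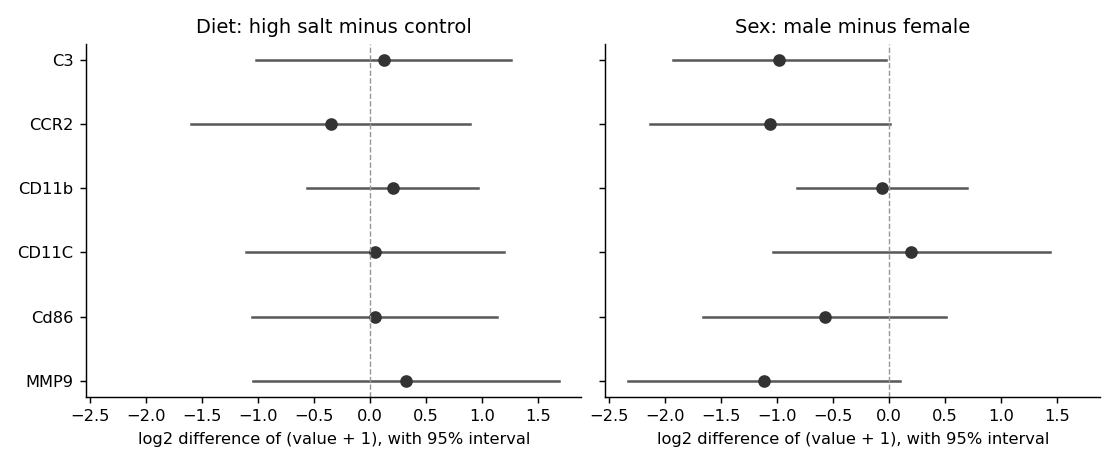
Log2 differences of the value plus 1 with their 95% intervals from limma, for high salt minus control (left) and male minus female (right), over 8 pools. All 6 diet intervals include 0, and of the sex intervals only that of C3, -1.93 to -0.026, does not.

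The diet difference of CD11C had opposite signs in the 2 sexes. In male pools CD11C was 9.01 and 10.3 on high salt against 4.31 and 5.21 on control, a log2 difference of 0.89. These pools did not overlap, but the floors of the high salt male pools, 6.51 and 5.11, were above or close to these control values, which rest on 3 and 5 counts. In female pools it was 1.59 and 9.29 on high salt against 11.6 and 5.37 on control, a difference of -0.79. The interaction was 1.68 ± 0.96 (adjusted p = 0.709). It was 0.64 with a common floor, 0.70 with a pseudocount of 10, 0.68 without the high salt pool at the floor, 0.19 without both female 1-3 pools and 2.68 without the high salt female 4-5 pool. CCR2 in males was 24.2 and 30.8 on high salt against 41.7 and 35.4 on control, a difference of -0.48 between pools that did not overlap. In females the difference of CCR2 was -0.22 between pools that did. In recovered counts the male pools lay the other way, with 59 and 57 on high salt and 29 and 34 on control. A single count was worth 0.409 and 0.540 in these high salt pools and 1.44 and 1.04 in these control pools. With 2 pools against 2, male pools of 2 of the 6 members did not overlap between diets, against 35.3% of the 68 genes. Female pools of 1 of the 6, CD11b, did not overlap, against 39.7% of the 68. Cd86 had an interaction of 1.00 ± 0.93 (adjusted p = 0.880), which ran from 0.22 without the high salt female 4-5 pool to 1.77 without the high salt female 1-3 pool and was 0.36 with a common floor. The other 4 genes lay between -0.53 and -0.15. The interaction passed for 0 of 6 members and 0 of 68 genes (0%), and at an unadjusted p under 0.05 for 0 of 6 and 8.82% of the 68. There were 2 pools per sex and diet, and the 95% interval of the CD11C interaction ran from -0.52 to 3.88.

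Of the 15 pairs of members, CCR2 and MMP9 had the highest r in normalized values. Over the 8 pools their log2 values had a Pearson r of 0.904 (exact permutation p = 0.00109) and a Spearman rho of 0.786 (exact permutation p = 0.0279). After adjustment over all 2278 pairs of the 68 target genes neither passed, at 0.151 and 0.340, and 0 of the 2278 pairs did by Pearson r. Without the 2 pools farthest from the median of CCR2, which are the 2 female 1-3 pools, r was 0.693. It was 0.982 after the diet means were subtracted and 0.840 after the sex means were. The ratio of CCR2 to MMP9 was 2.53 to 3.47 in the high salt pools and 3.63 to 5.67 in the control pools, so that it was lower in every high salt pool than in any control pool. This was the ratio of 1 of the 15 member pairs, against 2.06% of the 2278 pairs, and it was singled out after its values were seen. MMP9 was at or below the highest negative control in 3 of the 4 control pools and in the high salt male 1-3 pool, so these ratios are imprecise.

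C3 had the next highest r with both of these genes. It was 0.706 with CCR2 (exact permutation p = 0.0446, adjusted 0.343; rho 0.690, exact p = 0.0694, adjusted 0.432) and 0.712 with MMP9 (exact permutation p = 0.0533, adjusted 0.357; rho 0.476, exact p = 0.243, adjusted 0.675). Without the 2 pools farthest from its own median, r was 0.670 with CCR2 and 0.501 with MMP9. After the sex means were subtracted these were 0.456 and 0.496. Between the integrin chains CD11b and CD11C r was 0.034 (exact permutation p = 0.938, adjusted 0.986) and rho 0.048 (exact permutation p = 0.935, adjusted 0.990). CD11C had negative r with CCR2, Cd86 and MMP9, of -0.064, -0.19 and -0.067, with 1 pool at the floor for CD11C. Of the 15 pairs of members 12 had a positive r, against 62.0% of the 2278 pairs, and 2 had an exact permutation p under 0.05, against 14.0%. The count of positive pairs was 10 to 15 when 1 pool was left out, and it was 15 without the high salt female 1-3 pool, where CD11C was at the floor, and 15 with a common floor. The median r was 0.316 over the 15 pairs and 0.174 over the 2278.

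CCR2 also followed the scaling factor of the pools. The value of 1 count is the factor by which nSolver's scaling to Gapdh, Gusb and Pgk1 multiplied a pool's counts. It was largest in the female 1-3 pools, which had the lowest totals of their diets. It did not follow the total in every pool. Control male 1-3 had 74270 counts and a factor of 1.44, and control male 4-5 had 45545 and 1.04. Correlation with the total was not computed. The log2 of the factor had an r of 0.929 with that of CCR2 (exact permutation p = 0.000198, adjusted p = 0.0129 over the 68 genes) and a rho of 0.952 (exact permutation p = 0.00114, adjusted 0.0455). By r CCR2 was among 6 of the 68 genes that passed the adjusted threshold, and r was 0.863 without the female 1-3 pools. MMP9 had an r of 0.793 (exact permutation p = 0.0191, adjusted 0.145), and 0.273 without those 2 pools. These were the 2 of 6 members with an unadjusted p under 0.05, against 22.1% of the 68 genes, and C3 (0.545), Cd86 (0.538), CD11b (0.245) and CD11C (-0.379) were less close. A value is its count times this factor, so the 2 quantities are not independent.

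In recovered counts CCR2 was the least variable member. Its counts were 59, 57, 26 and 43 in the high salt pools and 29, 34, 41 and 32 in the control pools, a 2.27-fold range, while the total ranged 12.5-fold and Gapdh, Gusb and Pgk1 ranged 8.69-fold, 10.9-fold and 8.8-fold. The pool with the fewest barcodes, control female 1-3, had 41 CCR2 counts, more than the other control pools. MMP9 counts were 17, 21, 10 and 17 on high salt and 8, 6, 10 and 6 on control, a 3.50-fold range. Between the log2 recovered counts of CCR2 and MMP9 r was 0.779. After a linear fit of their log2 values, not counts, on the log2 of the factor in all 8 pools, it was 0.743. On neither scale was it the closest pair. CCR2 and CD11C had an r of 0.880 in counts, over the 7 pools where CD11C was above the floor. After the fit their r was 0.841 over all 8 pools, with CD11C at the floor in 1. C3 and CCR2 had 0.820 in counts and 0.642 after the fit, both over 8 pools. CD11b and CD11C had 0.852 in counts, over 7 pools, and 0.141 after the fit, over 8. In counts, which share the depth of their pool, 15 of 15 pairs had a positive r, with a median of 0.697. After the fit 14 had. Pairs with CD11C or Cd86 used the 6 or 7 pools above the floor in counts, and all 8 after the fit. The share over all 2278 pairs of target genes was computed on neither scale. Neither count is therefore read as a trait of the members. What part depth or the scaling factor had in the levels of CCR2 and MMP9 was not tested further.

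**Figure D4:**
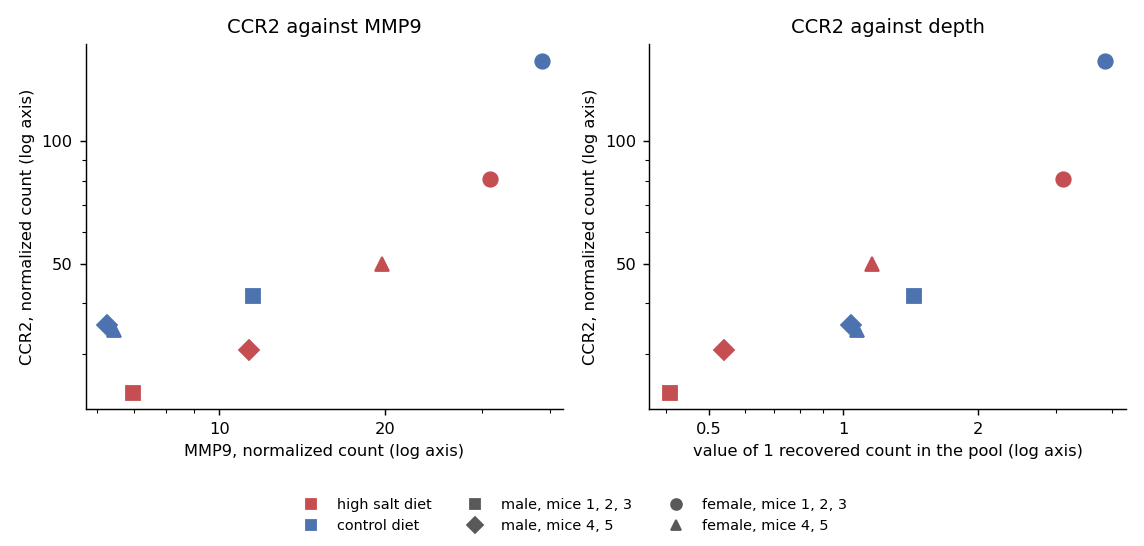
CCR2 against MMP9 (left, normalized counts) and against the value of 1 recovered count in the pool (right), all on log axes, with 1 symbol per pool. The female 1-3 pools are at the upper right of both plots, at CCR2 values of 80.7 on high salt and 158.0 on control.

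Other panel genes tracked some of the members as closely. Of the panel genes that are not members, 43 were never at the floor, and those with the highest r are named for 5 of the 6 members. For CCR2 they were Cldn1, a tight junction claudin, at 0.95 (0.41 without the female 1-3 pools), and CHAT, the enzyme that makes acetylcholine, at 0.93 (0.86 without). For MMP9 they were CHAT at 0.95 and SOX10, a transcription factor of enteric glia, at 0.90. CD11b was nearest to Pparg, a nuclear receptor, at 0.88 and to Reg3g, an antimicrobial lectin of the epithelium, at 0.87, and without the female 1-3 pools these were 0.91 and 0.91. For C3 they were CXCR3, a chemokine receptor of T cells, at 0.78 and CHAT at 0.72. CD11C was nearest to NFAT (0.78, and 0.35 without the female 1-3 pools) and Lyz1 (0.60, and 0.45 without), from values close to background. These r are over 8 pools that share their scaling and depth, and were picked as the highest of 43.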

How the data were processed

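RNA of whole colon was measured in 8 pools, 4 per diet, each assigned its diet, sex and mice by its labels. The deposited values are a signal, normalized barcode counts that the authors made with nSolver 4.0. No source used here gives its background or normalization settings. By the values, genes were scaled to Gapdh, Gusb and Pgk1, and low values were set to the unscaled geometric mean of the pool's 6 negative controls. Within 0.006, the 487 values over the floor were whole multiples of a step per pool and 81 equalled the floor.

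The 68 target genes were tested with limma 3.58.1 in R 4.3.3 on log2 of the value plus 1, which understates changes of low genes, with Benjamini-Hochberg adjustment at 0.05. Members had two-sided exact permutation tests over 70 assignments of pools, and correlations over all pairings. The design named adjustment over the 15 member pairs, and it was made over all 2278 pairs of target genes instead. Members and lists were chosen with earlier results of these data known, and the rule names the 6 members, the 2 genes most like each, the references and genes of the lists. The genes most like Cd86 are not reported here. Same-numbered pools of the diets did not deviate together in all pairs. The limma fit was tested on simulated data. Intervals of recovered counts cover counting error only. Alternatives were other pseudocounts, centring on the median, filters and a common floor, weights, sex or replicate as a term, other variance models and leaving out pools. Subtraction of negative controls, leaving out both female 1-3 pools, and voom on recovered counts were added after seeing the data. Promoters come from the RefSeq table of GRCm38.p6. Other steps used Python 3.11.15, numpy 2.4.6, pandas 2.3.3, scipy 1.17.1 and matplotlib 3.10.9.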

Additional observations from a re-analysis of the deposited data

Results flagged for a closer look

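In 4 of the 12 groups of 4 pools (6 genes on 2 diets) a single pool stood apart from the other 3 by Dixon's test at 95%. The test was run on normalized values without log2. About 0.6 such groups would come up by chance if the 12 were independent and normally spread. The 6 genes share their pools, so the groups are not independent and 4 is not read as an excess. All 4 involve a female 1-3 pool, the least deeply counted of its diet. CD11C was 1.59 in the high salt pool, the floor, where the next lowest was 9.01. In the control pool, CCR2 was 158.03 where the next highest was 41.7, MMP9 was 38.54 where the next was 11.5, and CD11C was 11.56, from 3 counts, where the next was 5.37.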

How the results depend on the processing

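There were 4 pools per diet, and 3 to 59 counts behind each value above the floor of the genes other than C3. For diet and for diet by sex, 0 members passed under every alternative that tested them. The genes never at the floor, which voom also used, left out CD11C and Cd86. A mean value of at least 20 kept only C3 and CCR2. Leaving out 1 pool at a time gave diet differences of -0.26 to 0.50 for C3, -0.66 to 0.17 for CCR2, -0.15 to 0.55 for CD11C, -0.34 to 0.33 for Cd86 and -0.011 to 0.87 for MMP9. It gave sex differences of -0.37 to 0.56 for CD11C, -0.31 to 0.16 for CD11b and -0.98 to -0.23 for Cd86, and interactions of -1.09 to 0.36 for C3, -1.35 to 0.82 for CCR2, -0.74 to 0.43 for CD11b and -1.74 to 0.68 for MMP9. For sex, 0 to 2 members and 0 to 7 target genes passed when 1 pool was left out. For diet, 0 to 5 target genes did, the 5 being I-FABP, Muc2, Reg3g, Tlr2 and trpv1 without the control male 1-3 pool. For sex, 1 target gene passed with a pseudocount of 10, a floor common to the pools, genes never at the floor, or a mean value of at least 20 (P75 each time). With pools centred on their median 1 passed, SOX10. That median, taken over the 47 genes never at the floor, was on average higher in male than in female pools, by 0.15 in log2. The sex difference of Cd86 was -1.32 with negative controls subtracted. Other sign changes were -0.099 for the diet difference of CD11C with pools weighted by mice, -0.068 and -0.20 for that of Cd86 with a common floor and with negative controls subtracted, -0.049 and -0.052 for the sex difference of CD11C with a common floor and without both female 1-3 pools, and 0.10 and 0.045 for that of CD11b with negative controls subtracted and without those pools. The cause was not tested. As a replicate block, the pool numbers left the diet difference of C3 at 0.13 (adjusted p = 0.932) and called 0 genes. Deviations of same-numbered pools correlated at -0.52, 0.11, 0.16 and -0.31, so the pools were not treated as pairs. The planned count model on recovered counts was not run, and voom stood in for it.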
